A study of Drosophila melanogaster with 4 samples.

Results

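The odorant-binding protein (Obp) genes of Drosophila melanogaster were examined in RNA of dvpdf neurons from fly brains. Members were the gene rows whose symbol starts with Obp followed by a digit, which gave 44 of the 14163 gene rows. The series holds 4 libraries, 2 of the control group and 2 of the group labelled NonA RNAi, in which nonA was targeted by RNA interference in dvpdf cells. In the clock field dvPdf names a GAL4 driver active in PDF neurons of the brain and in some other lateral clock neurons. The labels give neither the driver and RNA interference lines, nor the genotype of the controls, nor the age, sex or sampling time of the flies. They do not say whether replicates came from separate dissections. The p-values therefore speak only to how far these 4 libraries scatter, and that scatter may be technical.

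Odorant-binding proteins are small secreted proteins that carry hydrophobic ligands. They are best known from the fluid that bathes the sensory neurons of antennae and taste bristles, into which support cells release them. Many members are also made outside the chemosensory organs, among them in glia, in the fat body and in the male reproductive tract. Central clock neurons are not a classical site of the family. On sequence, most members keep a common cysteine pattern, the Plus-C members carry extra cysteines, the Minus-C members lack some of them, and the dimer members hold a pair of binding domains.

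Gene reads came to between 8419248 and 9832771 per library, and levels are given as CPM, reads of a gene scaled to 1000000 gene reads in the library, so that 3 reads correspond to between 0.305 and 0.356 CPM. The targeted gene nonA, whose product binds RNA in the nucleus, was at 256 and 241 CPM for control replicates 1 and 2 and at 168 and 283 CPM for NonA RNAi replicates 1 and 2. It was lower than both controls in NonA RNAi replicate 1 and higher than both in replicate 2, so every direction given for the libraries labelled NonA RNAi rests on their label. Pdf, the neuropeptide gene of the targeted cells, was at 4979 and 2159 CPM among controls and at 18436 and 86575 CPM under the NonA RNAi label. Markers of other cell types were read too. The summed level of 10 glial marker genes, all of them read in every library, ranged from 453 to 6322 CPM, that of 9 fat body markers from 105 to 3583 CPM, that of 6 hemocyte markers from 608 to 1234 CPM and that of 9 photoreceptor markers from 60.6 to 332 CPM. Because the libraries are bulk RNA, fewer cells of a type and less RNA per cell cannot be told apart.

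Most of the family was not read. Of the 44 Obp genes 25 had no read in any library, 3 had between 1 and 9 reads and 16 had at least 10 reads in at least 1 library. This is 36.4% of the family, against 73.1% of all gene rows. Whether reads of the 25 genes at 0 were set aside as ambiguous between overlapping genes was not tested. Obp50b and Obp50c, both at 0, are listed with the same length of 1822 bases. Just inside the limit of 10 reads lay Obp46a with 11 reads and Obp57e with 23 reads in their best library, and just outside lay Obp57c with 5 and Obp56e with 4 reads. By chromosome arm, 7 of the 29 members on 2R, 7 of 9 on 3R, 2 of 5 on X and 0 of 1 on 2L reached the limit. By class, both dimer genes reached it, as did 5 of the 13 Plus-C genes. Of 7 members known as seminal fluid proteins, 1 reached it, and 4 had no read. Minus-C members were not counted as a class. Obp99b and Obp99d had no read in any library, unlike Obp99a and Obp99c, described below. Within a library, between 5 and 10 Obp genes had 10 reads or more.

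Reads of the family came mainly from 3 genes. Obp18a, Obp44a and Obp99c together held 99.0% of the 127368 Obp reads. The family took 0.0685% and 1.16% of the gene reads for control replicates 1 and 2 and 0.0165% and 0.0695% for NonA RNAi replicates 1 and 2. The exact (Clopper-Pearson) 95% binomial interval for control replicate 2 was 1.15% to 1.17%, and such intervals cover counting error only, since amplified reads are not independent molecules. Control replicate 2 thus stood apart from the other 3 libraries, and NonA RNAi replicate 1 was lowest. Without Obp18a the shares were 0.0672% and 0.159% among controls and 0.0165% and 0.0616% under the NonA RNAi label, and control replicate 2 remained highest. The ratio of the mean share in the NonA RNAi group to that in the control group was 0.07, and it was 0.627 without control replicate 2.

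**Figure D1:**
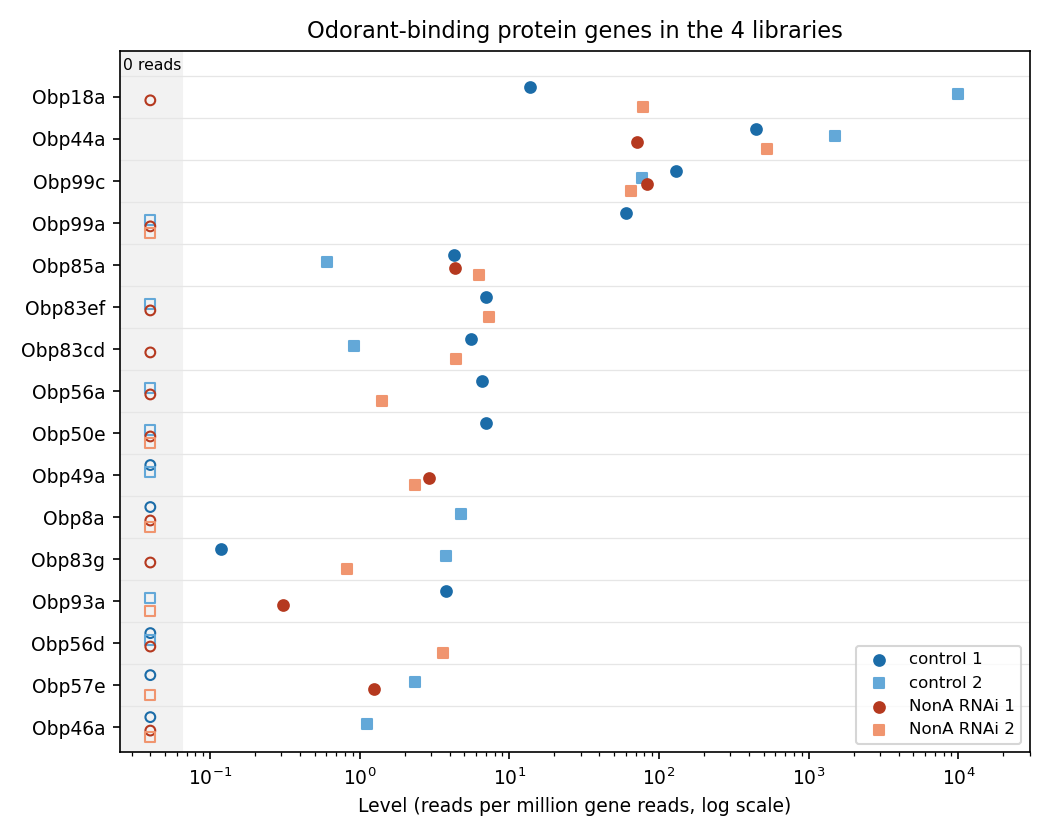
Level of the 16 Obp genes with at least 10 reads in any library, in CPM on a log axis, with 1 point per library and open symbols in the grey band for 0 reads. Obp18a spans from 0 to 10012 CPM, Obp99c stays between 65.4 and 130 CPM, and the 12 lowest genes never exceed 7.36 CPM.

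Obp18a, a member on the X chromosome, was the most abundant gene of control replicate 2 and was not read in NonA RNAi replicate 1. It had 116 and 98446 reads for control replicates 1 and 2 and 0 and 670 reads for NonA RNAi replicates 1 and 2. These correspond to 13.8 and 10012 CPM among controls and to 0 and 78.3 CPM under the NonA RNAi label. A single library held 99.2% of the reads, and the groups overlapped, since NonA RNAi replicate 2 lay above control replicate 1. The control libraries alone differed by 727-fold, with a 95% counting interval of 606 to 880. The group means were 5013 ± 7070 CPM (SD, n = 2) among controls and 39.1 ± 55.4 CPM (SD, n = 2) under the NonA RNAi label. The fitted log2 fold was -6.94 (standard error 3.5) with a 95% interval from -15.49 to 1.60, and the adjusted p of edgeR's quasi-likelihood test was 0.938. Without control replicate 2 the log2 fold was 1.57, so that the direction was set by that library. It was -7.94 without control replicate 1, -5.94 without NonA RNAi replicate 1 and -18.55 without NonA RNAi replicate 2, where the remaining NonA RNAi library had no read.

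Genes with such a gap between the controls were few. Of the 175 genes at 1000 CPM or more in at least 1 control library, 5 differed by 100-fold or more between the controls, with libraries under 3 reads set to 3 reads. Obp18a had the second largest gap. The others were CG12239, CG2145 and CG32372, highest in control replicate 2 like Obp18a, and Yp3, a yolk protein gene highest in control replicate 1. CG12239 was at 5.46 and 5924 CPM among controls and at 5.07 and 10.5 CPM under the NonA RNAi label. The genes on either side of Obp18a did not share its profile: tgy was read 15 times in NonA RNAi replicate 1 and not in the other libraries, and RhoGAP18B had 791 and 2339 reads among controls and 544 and 1007 under the NonA RNAi label.

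Obp44a, a Minus-C member on 2R known from glia of the fly brain, was read in all libraries but at very different levels. It had 3762 and 14723 reads among controls and 694 and 4485 reads under the NonA RNAi label. Its level was 447 and 1497 CPM for control replicates 1 and 2 and 71.7 and 524 CPM for NonA RNAi replicates 1 and 2. The highest library exceeded the lowest by 20.9-fold, and the groups overlapped because NonA RNAi replicate 2 lay above control replicate 1. Among the 3828 genes with a mean of 50 to 1000 CPM the median of this ratio was 2.04, and 3.21% of them had a ratio at least as large as that of Obp44a. The means were 972 ± 743 CPM (SD, n = 2) among controls and 298 ± 320 CPM (SD, n = 2) under the NonA RNAi label. The log2 fold was -1.65 (standard error 1.06) with a 95% interval from -4.25 to 0.95, and the adjusted p of edgeR was 0.971. It was -2.28 without control replicate 1, -0.54 without control replicate 2, -0.82 without NonA RNAi replicate 1 and -3.85 without NonA RNAi replicate 2.

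The summed level of the 10 glial markers followed the same order of libraries. It was 1899 and 6322 CPM among controls and 453 and 2307 CPM under the NonA RNAi label. Obp44a stood at 23.5, 23.7, 15.8 and 22.7 CPM for each 100 CPM of summed glial markers, for control replicates 1 and 2 and NonA RNAi replicates 1 and 2. The sum was led by Gs2, a glutamine synthetase gene of glia, at 573 and 3932 CPM among controls and 114 and 859 CPM under the NonA RNAi label. With Gs2 left out, Obp44a stood at 33.7, 62.7, 21.2 and 36.2 CPM for each 100 CPM of the other 9 markers, so the near-constant value rested on Gs2. Of the single markers only Gs2 had the full order of libraries seen for Obp44a. By either end alone, 6 of 10 were highest in control replicate 2 and 5 of 10 lowest in NonA RNAi replicate 1. Obp18a did not keep a steady value against these markers, at 0.726, 158, 0 and 3.39 CPM for each 100 CPM of their sum. The part of glial RNA in either Obp gene's level was not tested. Obp44a shares exon bases with Pabp2 on the opposite strand in the BDGP6 annotation, and whether reads were counted by strand is not stated. Pabp2 had 1161 and 914 reads among controls and 1259 and 812 under the NonA RNAi label, without the range of Obp44a.

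**Figure D2:**
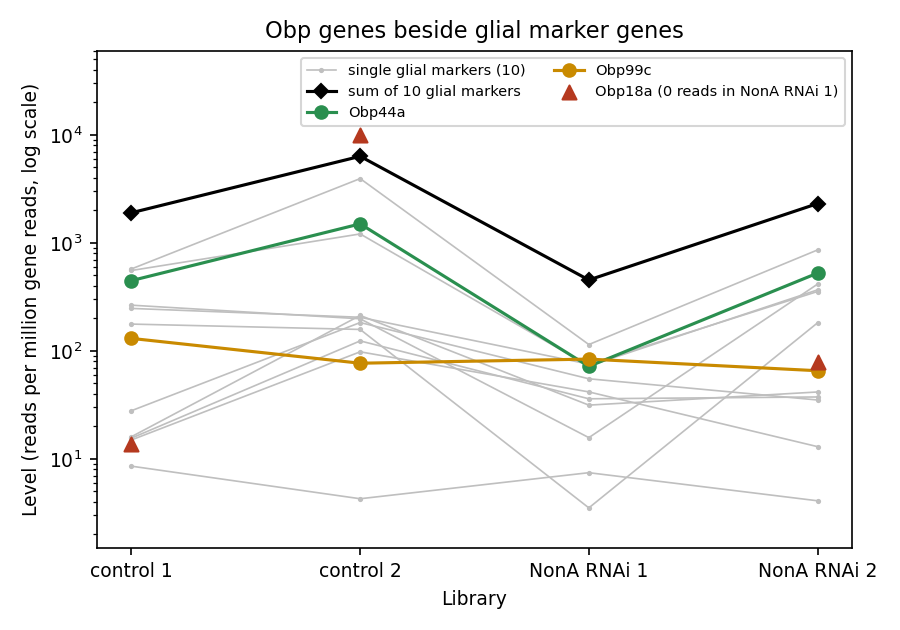
Levels per library, in CPM on a log axis, of Obp44a, Obp99c, Obp18a, the 10 glial markers (grey) and their sum (black); lines only join the points of 1 gene or sum. Obp44a and the marker sum are both highest in control replicate 2, at 1497 and 6322 CPM, and lowest in NonA RNAi replicate 1, at 71.7 and 453 CPM, while Obp99c stays within 2-fold.

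Obp99c, a Minus-C member on 3R, was the steadiest of the family. It had 1097 and 755 reads among controls and 811 and 560 reads under the NonA RNAi label. These gave 130 and 76.8 CPM among controls and 83.8 and 65.4 CPM under the NonA RNAi label. The highest library exceeded the lowest by 1.99-fold, and 47.8% of the genes with a mean of 50 to 1000 CPM had a ratio no larger than this. NonA RNAi replicate 1 lay between the controls, so the groups overlapped. Group means were 104 ± 37.8 CPM (SD, n = 2) for control and 74.6 ± 13.0 CPM (SD, n = 2) for NonA RNAi, the log2 fold was -0.46 (standard error 0.46) and the adjusted p of edgeR was 0.972. The 95% interval of the log2 fold ran from -1.58 to 0.66, so differences within these bounds cannot be told from 0. Obp99c shares exon bases with Gycalpha99B, a guanylyl cyclase subunit gene on the opposite strand, which had 1367 and 1289 reads among controls and 1507 and 1007 under the NonA RNAi label. How far reads of Gycalpha99B were counted as Obp99c was not tested.

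Obp99a, another Minus-C member on 3R, was read in a single library. It had 507 reads, or 60.2 CPM, in control replicate 1 and 0 in the other 3 libraries. Set to 3 reads in all, the NonA RNAi group was at least 169-fold lower than the control group, but control replicate 2 was also at 0. The fitted log2 fold of -11.08, which depends on the prior count, had an adjusted p of 0.916 in edgeR. DESeq2 called the gene with an adjusted p of 0.000132, as did edgeR without a filter on low values with an adjusted p of 0.0395, where 0.873% of 10884 genes passed, and both calls rest on control replicate 1 alone. Without that library no read of Obp99a was left. Control replicate 1 was also the highest library for 8 of 9 fat body markers, whose summed level was 3583 and 204 CPM among controls and 314 and 105 CPM under the NonA RNAi label. The yolk protein gene Yp3 was at 1364 and 6.10 CPM among controls and at 53.8 and 2.45 CPM under the NonA RNAi label, and fit, a fat body gene, was at 430 CPM in control replicate 1 and at 0 elsewhere. Other markers did not share the restriction of Obp99a to control replicate 1. Yp1 and Yp2 were at 64.1 and 63.6 CPM in NonA RNAi replicate 1. Rfabg was at 243 and 177 CPM among controls and at 131 and 94.6 CPM under the NonA RNAi label. The part of these cells in the Obp99a level was not tested.

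Per kilobase of listed length, the mean level over the 4 libraries was 3202 CPM for Obp18a, 888 for Obp44a, 24.9 for Obp99c and 22.2 for Obp99a. Obp99c is listed with 3577 bases, while its exons span 669 bases in BDGP6. Per kilobase of exonic length the means were 3441, 590, 133 and 24.7 CPM per kilobase in the same order. The first 7 places of the 16 genes were the same under both lengths. Within libraries the leading member differed. By exonic length it was Obp44a in control replicate 1 and NonA RNAi replicate 2, at 415 and 487 CPM per kilobase, and Obp18a in control replicate 2, at 13640. In NonA RNAi replicate 1 it was Obp99c by exonic length, at 125 against 66.7 for Obp44a, but Obp44a by listed length, at 100.3 against 23.4 for Obp99c.

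The remaining 12 members had between 11 and 63 reads in their best library and never exceeded 7.36 CPM. Among the Plus-C genes, Obp49a, whose product takes part in the suppression of sweet taste by bitter compounds in fly taste hairs, had 0 reads in both controls and 28 and 20 reads under the NonA RNAi label. This corresponds to 2.89 and 2.34 CPM against 0, at least 16.02-fold higher when the control group is set to 3 reads in all. Obp85a, another Plus-C gene, had 36 and 6 reads among controls and 42 and 54 reads under the NonA RNAi label. At 4.28 and 0.61 CPM against 4.34 and 6.31 CPM it was also higher in both NonA RNAi libraries, though by little against control replicate 1. Obp49a and Obp85a were the only members by the symbol rule whose groups did not overlap, 2 of 16 higher and 0 lower. Of all 10348 genes with at least 10 reads 14.7% were higher in this way and 16.3% were lower. Obp85a lies inside CG45263, listed as CG31462, with no shared exon bases, and CG31462 had 312 and 96 reads among controls and 785 and 165 under the NonA RNAi label.

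The other Plus-C members were read in 1 library or nearly so. Obp50e had 59 reads in control replicate 1 and 0 elsewhere. Obp93a had 32 reads in control replicate 1, 3 in NonA RNAi replicate 1 and 0 in the other libraries, and shares exon bases with CG5793 on the opposite strand, which had between 177 and 548 reads. Obp46a had 11 reads in control replicate 2 and 0 elsewhere. All 3 were highest in a control library, and in each case the other control had no read.

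The dimer genes Obp83cd and Obp83ef, neighbours that share exon bases on opposite strands, had most of their reads in the same pair of libraries. Obp83cd had 47 and 9 reads among controls and 0 and 38 under the NonA RNAi label. Obp83ef had 59 and 0 reads among controls and 0 and 63 under the NonA RNAi label. Both were thus high in control replicate 1 and in NonA RNAi replicate 2, and without strand their reads cannot be fully told apart. Obp83g, next in the cluster, had 1 and 37 reads among controls and 0 and 7 under the NonA RNAi label, with its peak in control replicate 2 instead.

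Low reads were also found for a further 4 members, none of the Plus-C or dimer class. In the Obp56 cluster, Obp56a had 55 and 0 reads among controls and 0 and 12 under the NonA RNAi label, and Obp56d was read 31 times in NonA RNAi replicate 2 and not in the other libraries. Obp57e, known from leg taste hairs and from work on host plant choice in Drosophila sechellia, had 0 and 23 reads among controls and 12 and 0 under the NonA RNAi label. Obp8a, a seminal fluid protein gene, had 47 reads in control replicate 2 and 0 elsewhere. Of the 7 male tract markers 4 had no read in any library, and the other 3 did not move together. Acp36DE had 38 reads in control replicate 2 and 0 in the other libraries, as for Obp8a. Acp53Ea had 43 and 0 reads among controls and 34 and 18 under the NonA RNAi label, so it was at 0 in the library that held Obp8a. Est-6, an esterase gene, had 352 and 95 reads among controls and 63 and 17 under the NonA RNAi label.

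**Figure D3:**
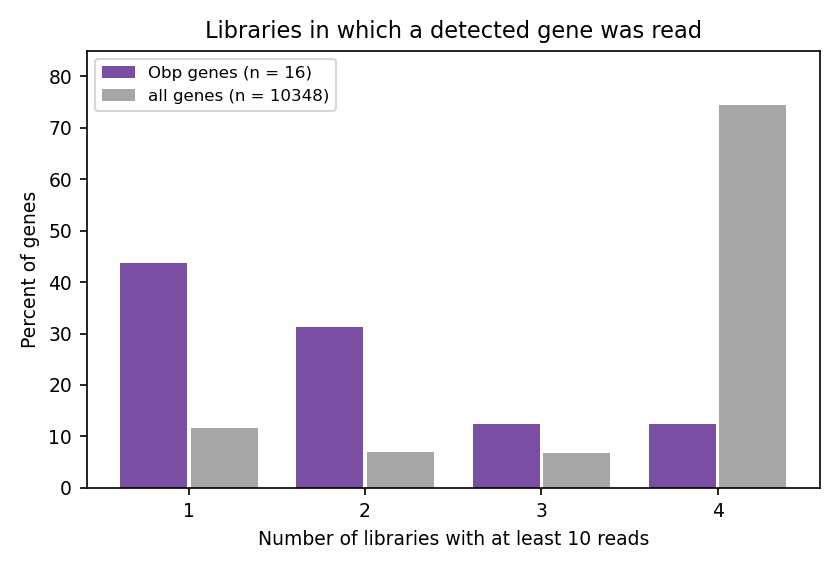
Percent of genes with at least 10 reads in exactly 1, 2, 3 or 4 libraries, for the 16 Obp genes and for all 10348 genes that reach 10 reads in any library. Of the Obp genes 43.8% reach the limit in 1 library and 12.5% in all 4, against 11.7% and 74.5% of all genes.

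Detection in few libraries was the common feature of the members. At least 10 reads were reached in 1 library by 7 members, in 2 libraries by 5, in 3 by 2 and in all 4 by 2, which were Obp44a and Obp99c. For 13 of the 16 members at least 1 library had no read, which is 81.2%, against 21.9% of all genes with at least 10 reads in any library. The low level of most members enters this contrast. Of all 2378 genes with 10 to 99 reads in their best library 78.5% had a library at 0, and of the 12 Obp genes in that range 11 had. A member's best library held a median of 82.2% of its reads, against 40.0% for all genes with at least 10 reads. The best library was control replicate 1 for 6 members, control replicate 2 for 6, NonA RNAi replicate 1 for 1 and NonA RNAi replicate 2 for 3. NonA RNAi replicate 1 had no read of 10 of the 16 members, against 5, 7 and 6 for control replicates 1 and 2 and NonA RNAi replicate 2. Over all genes with at least 10 reads in any library the share at 0 lay between 10.1% and 12.6%. These shares were not matched for level.

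The comparison of control with NonA RNAi called no Obp gene. After a filter on a mean RPKM of at least 1, 5 members remained among 7248 genes tested: Obp18a, Obp44a, Obp85a, Obp99a and Obp99c. These members passed in part through the group where they were high, so their directions, 1 higher and 4 lower, do not stand for the family. In edgeR 0 of the 5 had an adjusted p under 0.05, where 0.0% of all genes tested did. At an unadjusted p under 0.05 there was 1 member, Obp99a, against 5.09% of all genes, and DESeq2 also called Obp99a alone, against 1.82% of all genes. With 2 libraries on each side, the smallest two-sided p of an exact permutation test is 0.333. Obp85a had a log2 fold of 1.16 and a standard error of 1.65 and an adjusted p of 0.993 in edgeR, and its log2 fold became 3.11 without control replicate 1 and 0.33 without control replicate 2.

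All 16 members could be tested when the filter was at least 10 reads in any library. In that fit 0 of 16 passed in edgeR, where 0.0966% of 10348 genes did, and the adjusted p of members ranged from 0.438 to 0.999. Obp18a and Obp99a had an unadjusted p under 0.05, against 6.26% of all genes. Intervals of the low members were wide. For Obp83ef the log2 fold was 0.18 with a 95% interval from -5.95 to 6.31, and for Obp57e it was -0.93 with an interval from -10.53 to 8.67. Differences of many-fold in the low members were not detectable. Obp18a, with 98446 reads in control replicate 2, had a wide interval too, from -12.94 to -0.92. The part of low counts and of scatter between libraries in these widths was not tested.

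**Figure D4:**
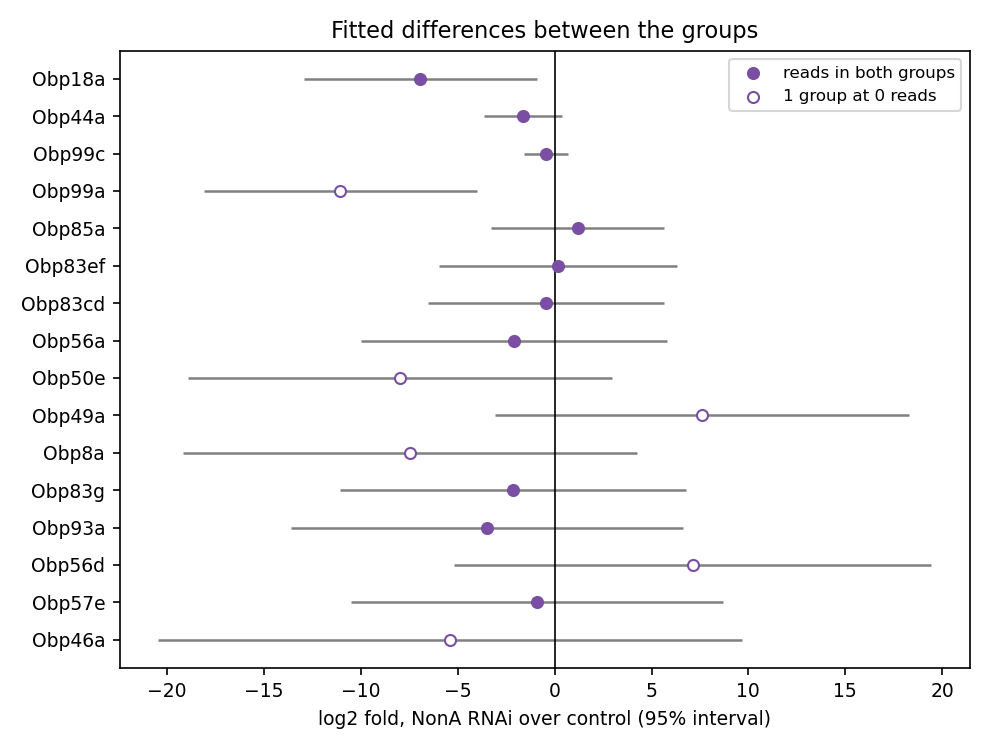
Fitted log2 fold of the libraries labelled NonA RNAi over control with 95% intervals, for the 16 Obp genes in the edgeR fit over genes with at least 10 reads in any library; open points mark genes with 0 reads in 1 group, whose fitted value depends on the prior count. The intervals of Obp18a and Obp99a do not reach 0, but their adjusted p were 0.665 and 0.438, and Obp99c has the narrowest interval, from -1.57 to 0.70.

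A further 8 genes that RefSeq names as Obp genes are listed under older symbols and so fell outside the symbol rule: lush (Obp76a), CG13027 (Obp73a), Os-E (Obp83b) and Pbprp1 to Pbprp5 (Obp69a, Obp19d, Obp83a, Obp84a and Obp28a). Of these 6 had at least 10 reads in any library. lush, needed for the response of antennal neurons to the male pheromone cis-vaccenyl acetate, had 54 and 0 reads among controls and 18 and 12 under the NonA RNAi label. Pbprp1, at Obp69a, had 0 and 180 reads among controls and 0 and 54 under the NonA RNAi label. Pbprp2, at Obp19d, had 9 and 164 reads against 0 and 6. CG13027, at Obp73a, had 13 and 20 reads against 0 and 4, and Pbprp3, at Obp83a, had 0 and 14 against 0 and 4. Pbprp1, Pbprp2, Pbprp3 and CG13027 were, like Obp18a, highest in control replicate 2 and at 0 in NonA RNAi replicate 1. For Pbprp2 and CG13027 the groups did not overlap, with both NonA RNAi libraries lower, as for 16.3% of all genes with at least 10 reads. Pbprp4, at Obp84a, was read in all libraries, with 28 and 99 reads among controls and 57 and 35 under the NonA RNAi label. It shares exon bases with Dtwd2, listed as CG10050, and Pbprp1 does so with CG32104, each on the opposite strand. CG10050 had between 40 and 142 reads and CG32104 between 113 and 427. CG13027 shares exon bases with Ogdh, listed as Nc73EF, on the same strand, and Nc73EF had between 1017 and 1820 reads. How far these were counted as Obp reads was not tested. The log2 folds of Pbprp1, Pbprp2 and Pbprp4 were -1.48, -4.58 and -0.43, with adjusted p of 0.997, 0.938 and 0.997 in edgeR. Pbprp5 and Os-E, known from the antenna, had no read.

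Of the 17 listed genes of olfactory transduction and pheromone detection, 11 had at least 10 reads in any library, which is 64.7%. Their summed level was 473 and 360 CPM among controls and 329 and 296 CPM under the NonA RNAi label, led by rdgB, a phosphatidylinositol transfer protein gene, between 171 and 221 CPM, and by CG14741, the flippase gene ATP8B, between 85.8 and 206 CPM. Markers of olfactory and taste neurons summed to 25.5 and 4.88 CPM among controls and to 51.8 and 21.6 CPM under the NonA RNAi label. The obligate odorant co-receptor gene Orco, listed as Or83b, had 0 and 2 reads among controls and 24 and 31 under the NonA RNAi label, and Ir8a and Gr21a were at 0 throughout. Ir76b was highest in a control library instead, with 120 and 0 reads among controls and 4 and 0 under the NonA RNAi label. The highest of these markers in any library was Gr66a, a bitter taste receptor gene, at 24.3 CPM in NonA RNAi replicate 1, while the pan-neuronal gene Syt1 lay between 858 and 1369 CPM. At least 10 reads in any library were reached by 30 of 59 odorant receptor genes, 15 of 59 ionotropic receptor genes and 28 of 61 gustatory receptor genes, which is 50.8%, 25.4% and 45.9%, beside 36.4% of the Obp genes. By the mean over the 4 libraries the most abundant of them was Or43b, an odorant receptor gene, at 107 and 78.5 CPM among controls and 93.1 and 65.0 CPM under the NonA RNAi label. In NonA RNAi replicate 1 the gustatory receptor genes Gr32a and Gr43a were higher, at 124 and 114 CPM.

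After the filter, 5 genes of olfactory transduction were tested, 2 higher and 3 lower with a median log2 fold of -0.19, and 6 odorant receptor genes, 1 higher and 5 lower with a median of -0.46. The gustatory receptor genes that passed the filter, 7 of 61, went the other way, with 7 higher and 0 lower and a median of 3.18. Of 10 markers of olfactory and taste neurons 3 were tested, all higher with a median of 4.71. Genes of these lists could pass the filter through the group where they were high, so the directions do not stand for whole lists. The 61 gustatory receptor genes summed to 128 and 94.6 CPM among controls and 351 and 106 CPM under the NonA RNAi label. NonA RNAi replicate 2 thus lay between the controls. Some of the 61 were read in 1 library only, Gr58c and Gr59d in NonA RNAi replicate 1, with 150 and 145 reads, and Gr10a in control replicate 2, with 93. Groups without overlap were found for 3 of the 61 that were higher under the NonA RNAi label and for 3 that were lower. The 7 to 0 split thus did not extend to the whole list. Of the ionotropic receptor genes tested 1 was higher and 1 lower, with a median of 0.10. Of other small ligand carriers tested 2 were higher and 9 lower, with a median of -1.92. This list shares fit and to with the fat body markers, both highest in control replicate 1, and also holds lush. Over all genes 3826 were higher and 3422 lower, with a median of 0.04. In edgeR 0 genes of each of these lists had an adjusted p under 0.05. At an unadjusted p under 0.05 in edgeR there were 4 of the 11 carriers tested, 1 of the 7 gustatory receptor genes tested and 0 genes of the other 4 lists. Of all 7248 genes tested 369 were, which is 5.09%. Among the carriers, Npc2a, a sterol-binding protein gene, was at 134 and 455 CPM among controls and 28.7 and 88.5 CPM under the NonA RNAi label, again highest in control replicate 2 and lowest in NonA RNAi replicate 1. CG6783, the fatty acid binding protein gene fabp, had 179 and 150 CPM among controls and 151 and 81.7 CPM under the NonA RNAi label, and CG30172, of the chemosensory protein family, had 330 and 171 CPM and 271 and 430 CPM in the same order.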

How the data were processed

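Extracted and amplified mRNA was made into Illumina TruSeq libraries, per the labels' protocols. TopHat2 2.1.1, Cufflinks and genome build dm3 are named in the submitters' processing notes; for the counting program, the annotation and strand the answer is not given in the sources used here. The files as deposited by the authors hold raw read counts, a length and the RPKM per gene, per the file headers. Library sizes and tests omit the 3 rows without a gene name: reads aligned to several places made up 45.2% to 55.6% of all entries, reads without a feature 27.8% to 32.5% and ambiguous reads 0.219% to 0.317%, so near-identical genes are uncertain. Levels were scaled to the sum of gene rows. The main test was the two-sided quasi-likelihood test of edgeR 4.0.16 under R 4.3.3 after TMM scaling, with Benjamini-Hochberg adjustment over the 7248 genes with a mean RPKM of at least 1 (without a length, 188 genes, a mean of 1 CPM) at a threshold of 0.05; standard errors are the absolute log2 fold over the square root of F. The fit was tested on simulated data. Alternatives were other scalings and filters, DESeq2 1.42.0, limma 3.58.1 on log2(RPKM + 1), the replicate number as a block and each library left out. The members and lists were chosen with earlier results of these data known. Every member with at least 10 reads in any library is named. Genes of other lists were named in part by mean level and in part otherwise, among them Orco, Ir8a, Gr21a, Ir76b and fit. All 44 symbols matched RefSeq (Release 6), used with the Ensembl BDGP6 annotation for names, arms, exonic lengths and overlaps only, since its build differs from dm3. Plus-C, Minus-C, dimer and seminal fluid membership is background knowledge.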

Additional observations from a re-analysis of the deposited data

How the results depend on the processing

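Obp44a, Obp85a and Obp99c kept their direction and did not pass the threshold in any alternative that tested them. Obp18a reversed to a log2 fold of 1.57 without control replicate 2, from -6.94 with all libraries, and lay between -18.55 and 1.57 with single libraries omitted, the lower end being a fit against a library without reads. No value could be had for Obp99a without control replicate 1, since no read was left. The number of genes called, 0 in the main test, was 95 without a filter, 10 with at least 10 reads in any library, 132 with DESeq2, and between 0 and 21 over the libraries left out, with 21 without control replicate 2. The number of Obp genes called was 0, and 1 without a filter and with DESeq2, Obp99a in both; it stayed 0 over the libraries left out. The family's share in NonA RNAi over control, 0.07, was 0.346 without Obp18a and lay between 0.0269 and 0.627 with single libraries omitted. With 10 reads required in every library 2 members were detected instead of 16, and with 1 read in any library 19. Ordered by level per exonic length, chosen after seeing the data, 9 of 16 members kept their place. The replicate numbers do not pair the libraries by the labels, and same-numbered deviations from the group means had a correlation of -0.0095 across 10348 genes; with the replicate number as a block 0 genes and 0 Obp genes were called. With a lone library left in a group, its spread is taken to equal that of the other group. The length from RefSeq proteins was not run. Read counts were low for the 12 low members, and 10 reads correspond to between 1.02 and 1.19 CPM.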

Other observations

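GLaz, a lipocalin gene named for its expression in glia and chosen here after its values were seen, had 48 and 1817 reads for control replicates 1 and 2 and 42 and 71 reads for NonA RNAi replicates 1 and 2, so that it was, like Obp18a, by far highest in control replicate 2. The lipocalin genes NLaz and Karl, listed with it, were highest in control replicate 1 instead. NLaz had 758 and 486 reads among controls and 596 and 333 under the NonA RNAi label, and Karl had 1317 and 362 against 0 and 397. a10, a chemosensory protein gene of the antenna, had 156 reads in NonA RNAi replicate 2 and 0 in the other 3 libraries, and was also chosen after its values were seen. CG2145 was at 6.06 and 3620 CPM among controls and at 208 and 200 CPM under the NonA RNAi label, and CG32372 at 4.75 and 1078 CPM against 8.58 and 24.9 CPM.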
